A study of Macaca fascicularis with 24 samples.

Results

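The small leucine-rich proteoglycans were followed in thoracic aorta RNA of the cynomolgus macaque, Macaca fascicularis. The members were 8 genes, DCN, BGN, LUM, FMOD, OGN, PRELP, ASPN and OMD, of 11963 genes that the array annotation names by 1 symbol. They were read by 15 of the 22215 probe sets other than controls, a probe set being the group of short probes that reports 1 transcript. They were picked by symbol. The aortas were assayed on 24 single-colour human arrays, 6 for each combination of age and sex. Per the labels, the mean age was 21.2 years in old females, 20.0 years in old males, 7.2 years in young females and 6.6 years in young males, and no treatment is named. The series' design text states the purpose as a comparison of old with young animals in each sex.

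These proteins are secreted into the extracellular matrix, where a core of leucine-rich repeats binds collagen fibrils and influences their diameter and spacing. Several carry glycosaminoglycan chains, chondroitin or dermatan sulphate in decorin and biglycan and keratan sulphate in fibromodulin and lumican. In the artery wall the family is made mainly by smooth muscle cells and by fibroblasts of the adventitia, and several members also bind growth factors of the transforming growth factor beta family.

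Before the members were compared, the arrays were compared with each other. In 3 of the 276 pairs, old females 1 and 4, young males 3 and 4 and young females 3 and 4, the arrays were nearly identical, and each pair was averaged and counted as 1 sample. The 21 samples comprised 11 males (6 old and 5 young) and 10 females (5 old and 5 young). A further 6 samples, called divergent here, correlated less well with the rest: their arrays had a median correlation of 0.81 to 0.83 with the other arrays, against 0.88 to 0.94 for the others. Among males these were old samples 2 and 4 and young sample 1, and among females old samples 2 and 6 and young sample 3. Their actin 3′ to 5′ log2 ratio, a sign of RNA quality, was 0.79 to 1.73, against -0.25 to 1.15. On 2 further technical measures they lay fully apart: their spiked hybridisation controls stood at 12.52 to 13.96 on the log2 scale, against 10.87 to 11.84, and their arrays' median deposited intensity at 234.3 to 264.1, against 144.3 to 212.2. Their summed adipocyte markers (7 of 8 on the array, 4 above the filter described below) lay at 13.45 to 15.24 on the log2 scale, against 10.16 to 14.49 in the other 15 samples. Summed smooth muscle markers (8 of 8 on the array, all above the filter) lay at 15.47 to 16.86 in the divergent samples and 16.53 to 17.40 in the others. The defining markers of the aortic media were therefore present. Summed fibroblast and adventitia markers (6 of 8 on the array, 5 above the filter) had a median of 12.88 (12.58 to 13.98) in the divergent samples. In the others it was 13.52 (13.10 to 14.21). The library labelled young male 1 stood at 10.31 for XIST, between the other males (6.09 to 8.14) and the females (11.18 to 13.11), while its Y-linked RPS4Y1, at 11.97, was near the 12.45 to 12.97 of the other males. The part of RNA quality, of hybridisation, of the mix of cells and of this library in the results was not tested, and values without the divergent samples stand beside the members' results. The labels do not say that the samples are separate animals, so p-values measure the spread between these samples.

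Levels are given as log2(intensity + 16) after quantile normalisation. A level describes the signal of its own probe set, so levels of different probe sets are not compared. Of the 15 member probe sets, 12, from 6 of the 8 genes, had a mean level at or above 7.59, the median over all probe sets, and entered the test. The single probe set of LUM (mean 7.09) and both of OMD (6.89 and 6.71) fell below it. A human probe that matches the monkey transcript poorly would also read low, so these low signals set no bound on the RNA. DCN, which encodes decorin, was read at a mean of 14.46, 14.18 and 14.00 by 3 of its 4 probe sets (201893_x_at, 211813_x_at and 211896_s_at) and at 10.59 by the fourth (209335_at). FMOD, for fibromodulin, stood at 13.08 (202709_at). PRELP, whose basic amino-terminal end binds heparin, stood at 11.96 (204223_at) and 10.28 (37022_at). BGN, for biglycan, stood at 11.04 (201261_x_at), 10.36 (201262_s_at) and 9.61 (213905_x_at). ASPN, for asporin, with its run of aspartate residues, stood at 10.32 (219087_at), and OGN, for osteoglycin, at 9.67 (218730_s_at). Within groups the bright DCN probe sets varied least, with an SD of 0.34 for 201893_x_at, and PRELP 204223_at, OGN and BGN 201262_s_at varied most among those tested, with SDs of 0.98, 0.95 and 1.003. Probe sets ending in _x_at can also bind other transcripts.

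**Figure D1:**
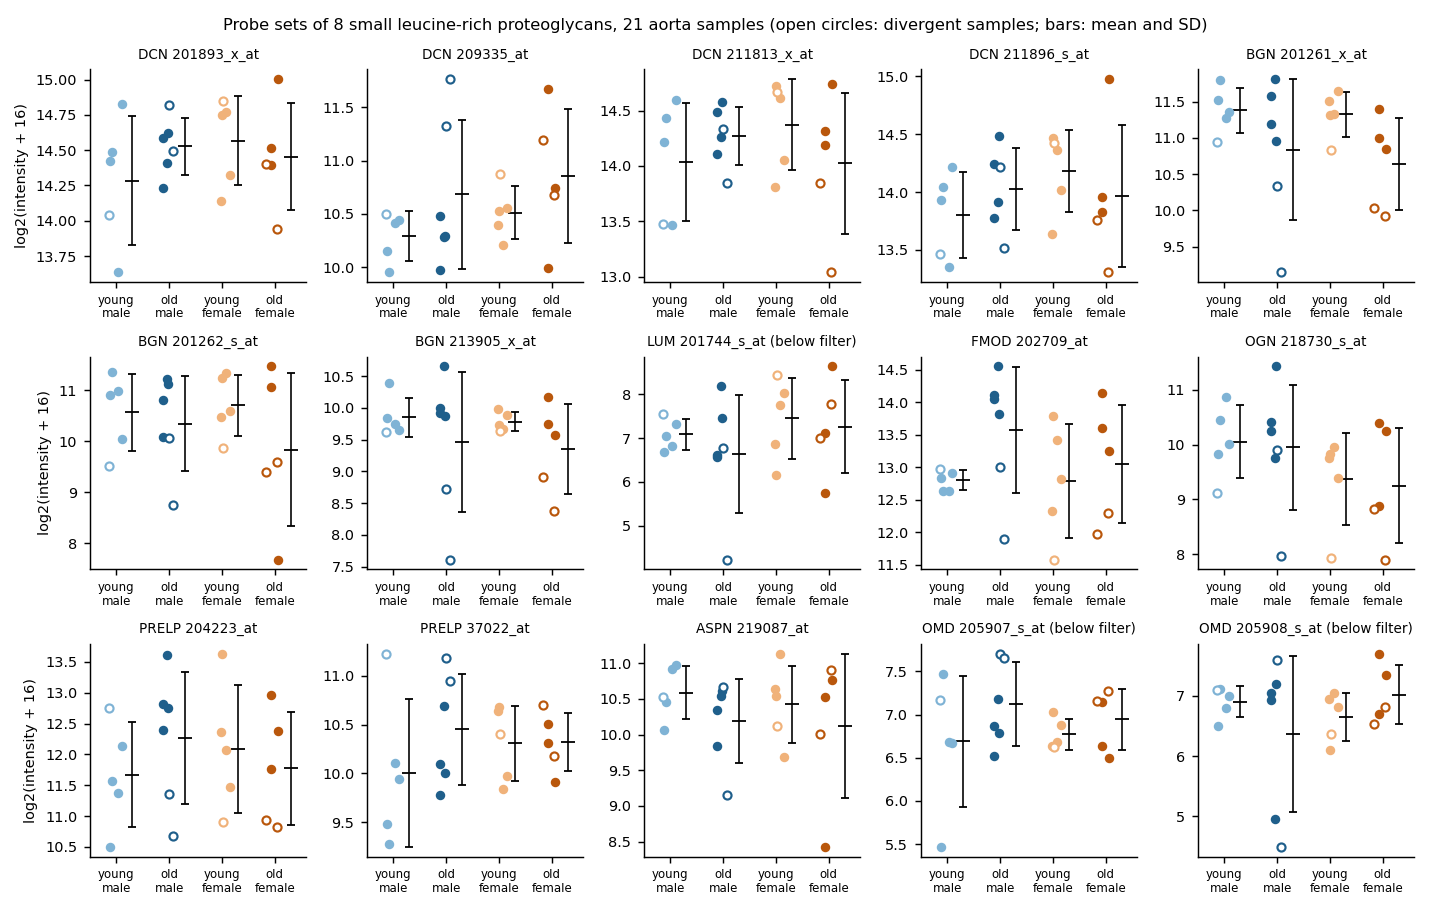
Level of each member probe set, as log2(intensity + 16), in the 21 samples by group. Filled circles are the 15 other samples, open circles the 6 divergent ones, and bars the group mean and SD; the groups overlap in every panel.

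None of the 12 tested member probe sets passed limma's test (Benjamini-Hochberg adjusted p below 0.05) in old against young males, where 0.018% of all tested probe sets did. None passed in old against young females or in the average of both sexes, where 0% of all tested probe sets passed. At an unadjusted p below 0.05 the members counted 0 of 12 in males (3.36% of all probe sets), 0 of 12 in females (2.84%) and 1 of 12 in the average (4.38%). The median log2 change of the 12 was 0.23 in males and -0.26 in females, beside -0.014 and -0.028 over all tested probe sets, and several of them read the same gene. By the brightest probe set of each of the 6 genes, the median was 0.070 in males and -0.21 in females. In males 3 of these genes had higher and 3 lower means in old animals, and in females 1 higher and 5 lower. For every member probe set the old and young groups overlapped in both sexes, as they did for all but 38 lower and 35 higher of the 11108 probe sets in males (0.342% and 0.315%) and 20 lower and 18 higher in females (0.18% and 0.162%). Because this is bulk tissue, fewer cells of a type and less RNA per cell cannot be told apart in any of these values.

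FMOD had the largest mean difference among the members in males. In old males FMOD ran from 11.90 through a median of 13.94 to 14.56. In young males it was 12.97, 12.64, 12.92, 12.64 and 12.83 in samples 1, 2, 3, 5 and 6. Most old males were therefore above all young males, but old male 4 was below all of them and the groups overlapped. The means were 13.58 ± 0.97 (SD, n = 6) and 12.80 ± 0.15 (SD, n = 5), a log2 change of 0.78 ± 0.44 (SE) or 1.71-fold, which did not pass (limma adjusted p = 1.0; exact permutation p = 0.104, two-sided). In females FMOD was 14.14, 12.30, 13.25, 13.61 and 11.97 in old samples 1, 2, 3, 5 and 6 and 13.80, 12.32, 11.58, 13.42 and 12.82 in young samples 1, 2, 3, 5 and 6. Both female groups spanned more than 2 log2 units and overlapped almost fully, with a log2 change of 0.27 ± 0.46. The difference between the age effects, males minus females, was 0.51 ± 0.64 and did not pass (limma adjusted p = 1.0).

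The lowest FMOD values belonged largely to divergent samples, and the male difference was larger without them. Among the others, old males 1, 3, 5 and 6 stood at 13.82, 14.06, 14.11 and 14.56 and young males 2, 3, 5 and 6 at 12.64, 12.92, 12.64 and 12.83. These groups did not overlap, at a log2 change of 1.38 ± 0.27 (SE) or 2.60-fold, with a limma adjusted p of 0.226 and an exact permutation p of 0.0286, the smallest that 4 against 4 allows. Of all tested probe sets, 2.9% were likewise higher without overlap, among them 2 of the 12 member probe sets, FMOD and PRELP 204223_at, and 2.42% lower, with no member. The same 2 were the members with an unadjusted limma p below 0.05 in males (5.87% of all) and in the average (6.82%), and neither passed after adjustment. The divergent males were old male 2 at 13.01, old male 4 at 11.90 and young male 1 at 12.97, so the difference was not seen there. FMOD passed the threshold in 1 setting, limma with array weights, which give the divergent samples weights of 0.26 to 0.37: the log2 change in males was then 1.29 ± 0.27 (adjusted p = 0.049), where 0.225% of all probe sets passed. In females without divergent samples it was 0.58 ± 0.29 (limma adjusted p = 0.922). The difference between the age effects without divergent samples, males minus females, was 0.80 ± 0.39 and did not pass (limma adjusted p = 0.999). In these males the summed adipocyte markers were 11.39 to 13.90 in old and 10.16 to 12.26 in young animals, and the summed chondrocyte markers (7 of 7 on the array, 4 above the filter) 11.03 to 13.18 and 11.12 to 11.75; smooth muscle markers were 16.85 to 17.40 and 17.00 to 17.07. The chondrocyte sum includes ACAN, the gene for aggrecan, which is described below. Whether the summed markers take part in the FMOD difference was not tested.

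PRELP is the gene next to FMOD in the RefSeq annotation of the macaque assembly T2T-MFA8v1.1, with 0 other protein-coding genes between them. Its probe set 204223_at ran in old males from 10.68 through 12.57 to 13.62 and was 12.76, 11.57, 12.14, 11.37 and 10.50 in young males 1, 2, 3, 5 and 6. The divergent old males 2 and 4 lay below the other old males, and the divergent young male 1 lay above the other young males. The log2 change was 0.60 ± 0.54 in males and -0.31 ± 0.56 in females (limma adjusted p = 1.0 in both). Without the divergent samples old males stood at 12.40 to 13.62 and young males at 10.50 to 12.14. The log2 change in males was then 1.5 ± 0.43 or 2.82-fold (limma adjusted p = 0.488, exact permutation p = 0.0286), and in females -0.015 ± 0.46. The difference between these age effects, males minus females, was 1.51 ± 0.63 and did not pass (limma adjusted p = 0.999). Probe set 37022_at gave smaller differences, 0.44 ± 0.31 in males and 0.015 ± 0.32 in females, and 0.44 ± 0.25 in males without divergent samples, where old and young males overlapped.

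**Figure D2:**
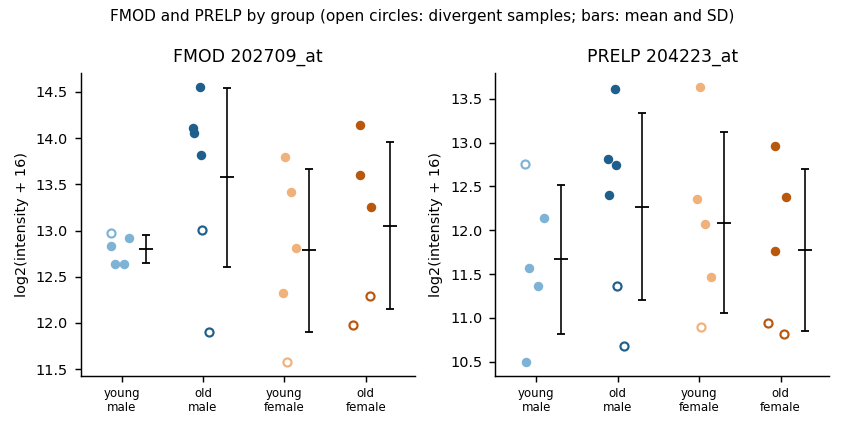
FMOD (202709_at) and PRELP (204223_at), as log2(intensity + 16), by group, with divergent samples as open circles and bars for mean and SD. Among the filled circles, the 4 old males lie above the 4 young males on both panels (13.82 to 14.56 against 12.64 to 12.92 for FMOD), and the divergent old males 2 and 4 lie below the other old males.

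BGN encodes biglycan, which lies on the X chromosome and carries chondroitin or dermatan sulphate chains. All 3 probe sets had lower means in old than in young animals of both sexes, and none passed. On 201261_x_at old males ran from 9.15 through 11.07 to 11.81 and young males were 10.94, 11.79, 11.36, 11.28 and 11.52 in samples 1, 2, 3, 5 and 6. Old females 1, 2, 3, 5 and 6 were at 11.40, 9.92, 10.85, 10.996 and 10.04, and young females 1, 2, 3, 5 and 6 at 11.31, 11.51, 10.83, 11.34 and 11.65. The values under 10.5 were all from divergent old animals. The log2 change was -0.54 ± 0.37 in males (1.46-fold lower), -0.69 ± 0.38 in females (1.61-fold lower) and -0.61 ± 0.26 in the average, the one member with an unadjusted p below 0.05 (limma adjusted p = 0.985). Without the divergent samples the average was -0.24 ± 0.14, with -0.10 in males and -0.37 in females. Leaving out old male 4 alone took the male change to -0.20. The other probe sets gave -0.22 ± 0.55 (201262_s_at) and -0.39 ± 0.40 (213905_x_at) in males and -0.87 ± 0.58 and -0.43 ± 0.42 in females. Single samples carried much of these: without old male 4, 213905_x_at in males was -0.018, and without old female 3, 201262_s_at in females was -0.33. Without divergent samples 201262_s_at was -0.015 in males and -0.84 in females. For 213905_x_at the means turned the other way without divergent samples, at 0.20 in males and 0.010 in females.

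DCN encodes decorin, a ligand of collagen and of transforming growth factor beta. On 201893_x_at old males ran from 14.23 through 14.54 to 14.82 and young males were 14.04, 14.49, 14.83, 13.64 and 14.43 in samples 1, 2, 3, 5 and 6. Old females were 14.40, 13.94, 15.004, 14.52 and 14.40 in samples 1, 2, 3, 5 and 6. Young females 1, 2, 3, 5 and 6 had 14.75, 14.14, 14.85, 14.77 and 14.33. All 4 groups shared most of their range. The log2 change was 0.24 ± 0.20 in males and -0.12 ± 0.20 in females, with 95% confidence intervals of -0.16 to 0.65 and -0.54 to 0.31. The other bright probe sets gave 0.23 and 0.22 in males and -0.35 and -0.22 in females. Without divergent samples all 3 stood between 0.11 and 0.22 in both sexes and none passed. The dimmer 209335_at gave 0.39 ± 0.30 in males and 0.34 ± 0.31 in females. Without the divergent samples it gave 0.016 ± 0.26 in males, since old males 2 and 4 had the highest male values, 11.32 and 11.77. In females it was then 0.38 ± 0.28.

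OGN, known for its expression in contractile smooth muscle, differed little with age on average and varied widely. Old males ran from 7.97 through 10.08 to 11.43, and young males were 9.11, 10.45, 10.02, 10.87 and 9.82 in samples 1, 2, 3, 5 and 6. The log2 change was -0.10 ± 0.53 in males and -0.12 ± 0.55 in females, with intervals of -1.20 to 0.99 and -1.27 to 1.02. A 2-fold fall lies within both intervals. A 2-fold rise lies within the female interval and just outside the male one. ASPN, which binds collagen and growth factors of the transforming growth factor beta family, gave -0.40 ± 0.38 in males and -0.30 ± 0.39 in females, and -0.27 and -0.59 without divergent samples. OGN turned to 0.17 and 0.11 without them. In females the lowest ASPN value was 8.43 in old female 5, against 10.005 to 10.90 in the other old females, and without that sample the female change was 0.13.

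LUM and OMD were fitted only in the analysis without a filter, where none of their 3 probe sets passed. LUM, for lumican, gave -0.45 ± 0.57 in males and -0.19 ± 0.60 in females. OMD, for osteomodulin, a keratan sulphate proteoglycan known from bone, gave 0.43 ± 0.33 and 0.17 ± 0.34 on 205907_s_at and -0.53 ± 0.46 and 0.37 ± 0.48 on 205908_s_at, so the OMD probe sets differed in sign in males. Without divergent samples LUM turned to 0.23 in males and was -0.030 in females. OMD 205907_s_at was then 0.27 in males and turned to -0.046 in females, and 205908_s_at was -0.32 and 0.53.

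**Figure D3:**
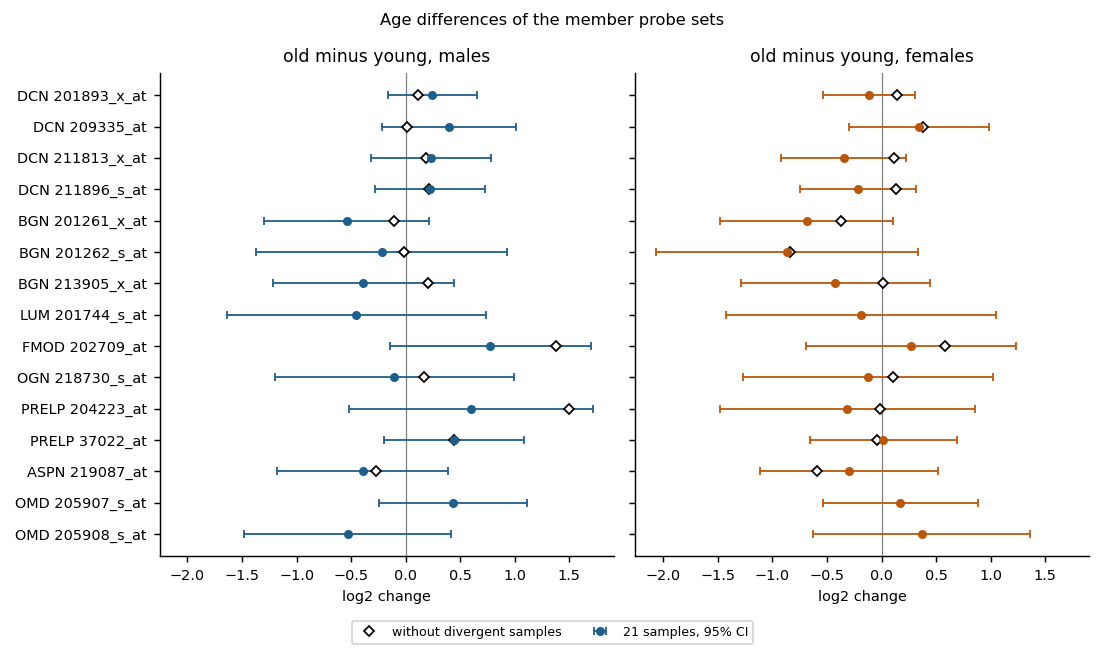
Log2 change, old minus young, of each member probe set in males and females. Filled circles with bars are estimates and 95% confidence intervals from limma in 21 samples, and open diamonds are the estimates without the divergent samples (tested probe sets only); every interval includes 0, and FMOD and PRELP 204223_at lie at 1.38 and 1.5 in males without those samples.

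Sex made no member pass either. Male against female gave 0 of 12 in young animals and 0 of 12 in old animals, where 0.027% of all tested probe sets passed in each, and the difference between the age effects gave 0 of 12 (0% of all). For the X-linked BGN, the male mean on 201261_x_at was higher by 0.050 ± 0.38 among young animals and by 0.19 ± 0.37 among old animals (log2), and by 0.035 and 0.30 without divergent samples. OGN had the largest sex differences among the members' brightest probe sets, with means higher in males by 0.68 ± 0.55 in young and 0.70 ± 0.53 in old animals, and did not pass (limma adjusted p of 1.0 and 0.999). Without divergent samples these were 0.56 and 0.62. In young animals PRELP 204223_at then had a larger difference, -0.99 ± 0.43 (males minus females, limma adjusted p = 0.999), and 37022_at had -0.58 ± 0.25. In old animals without divergent samples the 2 PRELP probe sets gave 0.52 ± 0.46 and -0.10 ± 0.28.

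The members differed in how they read in the divergent samples, which is described here without a test because these samples were set apart by the whole array. OGN averaged 8.61 ± 0.82 (SD, n = 6) in the divergent and 10.09 ± 0.60 (SD, n = 15) in the other samples. The 3 BGN probe sets were lower in the divergent samples by 1.17, 1.16 and 1.11 on the log2 scale, FMOD by 1.11 and PRELP 204223_at by 1.01. By contrast DCN 209335_at was higher by 0.65, PRELP 37022_at by 0.69 and OMD 205907_s_at by 0.52, while ASPN differed by -0.13. The bright DCN probe sets differed by -0.050 (201893_x_at), -0.44 (211813_x_at) and -0.30 (211896_s_at), OMD 205908_s_at by -0.33 and LUM by -0.17. Thus probe sets of DCN, PRELP and OMD differed in direction within 1 gene.

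The same split appeared between probe sets of 1 gene across samples, given as Pearson's r of deviations from group means. The bright DCN probe sets correlated at 0.88 to 0.92 with each other over 21 samples, and 209335_at correlated with them at -0.12 to 0.14. In the 15 other samples 209335_at stood at 0.010 to 0.045. The BGN probe sets correlated at 0.58 to 0.94 over all samples and at 0.37 to 0.68 in the 15. The PRELP probe sets correlated at 0.076 over all samples and at 0.56 in the 15. Those of OMD correlated at -0.11 and -0.025.

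Across samples, 6 of the 28 pairs of members, each by its brightest probe set, correlated beyond an adjusted permutation p of 0.05 (100000 permutations, two-sided, adjusted over the 28 pairs). They were the 6 pairs among BGN, FMOD, OGN and PRELP, whose brightest probe sets were lower in divergent samples. FMOD and PRELP had r = 0.83 (permutation p = 1e-05, the smallest these permutations can give, adjusted p = 0.00014) and Spearman's rho = 0.81 (permutation p = 4e-05, adjusted p = 0.00112). BGN and FMOD had r = 0.82 (permutation p = 1e-05, adjusted p = 0.00014) and rho = 0.70 (permutation p = 0.00059, adjusted p = 0.00826). Without the 2 samples farthest from the median these were 0.75 and 0.71. BGN and OGN had r = 0.69 (permutation p = 0.00055, adjusted p = 0.00513) and rho = 0.51 (permutation p = 0.0199, adjusted p = 0.0929). FMOD and OGN had r = 0.66, BGN and PRELP 0.64 (permutation p = 0.00123 and 0.00109, both adjusted to 0.00689), and OGN and PRELP 0.57 (permutation p = 0.00666, adjusted p = 0.0311). Their rho was 0.57, 0.57 and 0.56 (permutation p = 0.00781, 0.00746 and 0.00821, adjusted p = 0.046 for each). With the mean of each gene's probe sets in place of the brightest, the pairs with PRELP were lower, at 0.59 with FMOD, 0.30 with BGN and 0.27 with OGN, while the other 3 pairs stood at 0.63 to 0.79. Without the 2 farthest samples r was 0.65 for BGN and OGN, 0.41 for FMOD and OGN, and 0.47 and 0.46 for the other 2 pairs.

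Within the 15 other samples none of the 28 pairs passed after adjustment, and the 6 correlations above did not hold. FMOD and PRELP kept r = 0.54 (permutation p = 0.0373, adjusted p = 0.349), with rho = 0.39 (permutation p = 0.157). BGN and FMOD had 0.24, BGN and PRELP 0.15 and OGN and PRELP 0.22. BGN and OGN turned to -0.39 and FMOD and OGN to -0.14. Within the 6 divergent samples the same pairs lay between 0.30 and 0.91, by deviations from the means of the full groups. These values therefore still hold each group's offset between divergent and other samples, unlike those in the 15. Without old male 4 alone, 2 of the 28 pairs passed. A different pair was highest in the 15 samples, OGN and ASPN, which lie close together in the same assembly with only OMD between them. Their r was 0.70 (permutation p = 0.00385, adjusted p = 0.108), and rho 0.66 (permutation p = 0.00829, adjusted p = 0.232), beside r = 0.43 (permutation p = 0.051, adjusted p = 0.19) and rho = 0.46 (permutation p = 0.0374, adjusted p = 0.137) over 21 samples. OGN and OMD, also neighbours, had -0.38 and -0.052, and the neighbours LUM and DCN 0.16 and 0.31. With the other members DCN had r between -0.12 and 0.16 over 21 samples. In the 15 its r ran from -0.15 with BGN to 0.31 with LUM.

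**Figure D4:**
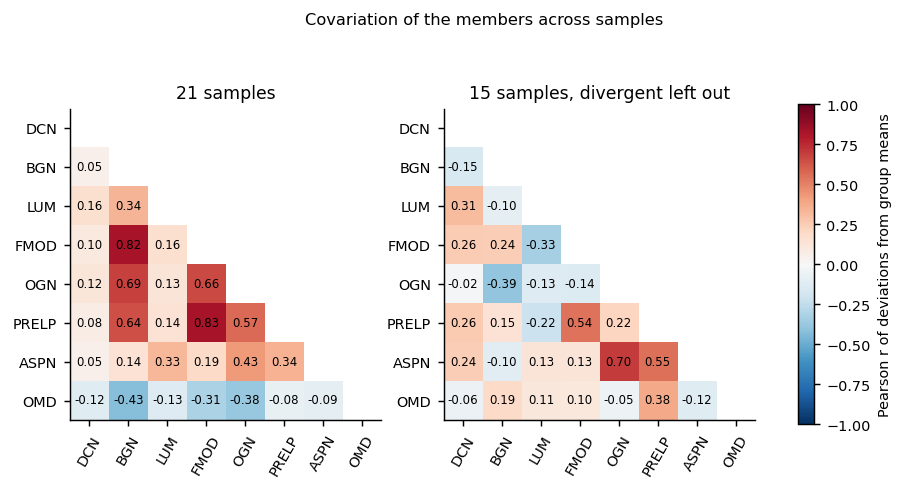
Pearson's r between members, by deviations of log2(intensity + 16) from group means, over 21 samples on the left and over the 15 samples without the divergent ones on the right (colour scale from -1 to 1). The block of BGN, FMOD, OGN and PRELP, at 0.57 to 0.83 on the left, lies at -0.39 to 0.54 on the right, where OGN and ASPN reach 0.70.

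For the 15 pairs of members above the filter the median r was 0.34 over 21 samples, and 6 pairs reached 0.5. Over all pairs of 6952 tested genes the median was 0.003, and 8.28% reached 0.5. In the 15 samples the members' median was 0.22 and 3 pairs reached 0.5, beside 7.78% of all pairs.

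Genes outside the family with the most similar profiles, by r over the 21 samples among 6951 genes, differed between members. For DCN they were CTSK (0.74), which encodes the collagen-cleaving protease cathepsin K, GPX7 (0.72) and PRRX1 (0.70), a transcription factor of mesenchymal cells, with 0.69, 0.75 and 0.67 in the 15 samples. BGN was closest to VCAN (0.93), for the large proteoglycan versican, AEBP1 (0.93) and MFAP4 (0.90), a microfibril-associated protein, with 0.60, 0.58 and 0.31 in the 15. FMOD was closest to ITGB5 (0.92), an integrin subunit, LTBP1 (0.91), which binds latent transforming growth factor beta, and CCN3 (0.91), with 0.73, 0.58 and 0.50 in the 15. OGN was closest to SH3BGRL (0.90), DYRK3 (0.90) and ITGB1BP2 (0.88), with 0.70, 0.69 and 0.66. PRELP was closest to MGP (0.85), for matrix Gla protein, an inhibitor of calcification, HTR2B (0.84), a serotonin receptor, and FZD1 (0.81), a Wnt receptor, with 0.70, 0.75 and 0.76. ASPN was closest to PDLIM4 (0.84), IKZF5 (0.79) and SUPT7L (0.79), with 0.84, 0.79 and 0.80. These genes were picked for their high r over the 21 samples, so the values in the 15 are given without a test.

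Genes that act with the family were read by 1 probe set each, and none of them passed in an age contrast. Up to 3 are named per list, picked for the smallest unadjusted p in the average contrast, so they do not stand for their list. Of 8 further family genes 6 were on the array and 1 was tested, ECM2, a neighbour of the OGN group of genes, with 0.39 ± 0.22 in males and 0.19 ± 0.23 in females. Among 18 fibrillar collagens and fibril-associated proteins, to which the members bind, 16 were tested and 12 had lower means in old animals, with a median of -0.29 in the average contrast beside -0.017 over all probe sets. COL1A2, COL1A1 and COL3A1, the chains of collagens of the artery wall, gave -0.96 ± 0.23, -1.11 ± 0.39 and -0.80 ± 0.31 in males and -0.41 ± 0.24, -0.45 ± 0.41 and -0.62 ± 0.33 in females. Without divergent samples they stood at -0.85, -1.07 and -0.74 in males and -0.040, 0.066 and -0.29 in females. COL1A2 had the smallest p of the list, at an adjusted p of 0.673 in the average contrast by limma. Of 34 genes for glycosaminoglycan chain synthesis 20 were tested, with a median of -0.062, and SLC35D1, a nucleotide sugar transporter, PAPSS2, which makes the sulphate donor, and CHST15, a sulphotransferase, gave average changes of -0.41, 0.50 and 0.60. Of 21 growth factors and receptors that bind members 18 were tested, with a median of -0.047, and TGFB2, ITGB1 and TGFB3 gave -0.80, -0.23 and 0.15. Of 20 proteases that process or cleave members 11 were tested, with a median of -0.067, and ADAMTS1, BMP1 and MMP2 gave -0.84, -0.42 and -0.41. In males 2 of the 4 tested chondrocyte markers had higher and 2 lower means in old animals, with a median of 0.14. The 1 that passed, ACAN, for the large proteoglycan aggrecan, rose in males by 3.10 ± 0.51 (limma adjusted p = 0.047), and by 3.47 ± 0.55 (limma adjusted p = 0.049) without divergent samples. This call was narrow: it held in 8 of 12 other settings and in 3 of 21 that left out 1 sample, where the log2 change was 2.74 to 3.44 and the adjusted p 0.00531 to 0.195.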

How the data were processed

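The deposited table holds a linear intensity for each probe set and array; per the labels' protocols, total RNA was reverse-transcribed and biotin-labelled. Probe summary and scaling by the authors were not given in the sources used here; a mean trimmed by 2% at each end was 500.1 to 500.2 on every array, and array medians ran from 144.3 to 264.1. The number of arrays limits the precision.

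From these, log2(intensity + 16) was quantile normalised over 24 arrays without the 62 control probe sets, and near-identical arrays were averaged. The pseudocount understates changes of dim genes. The 11108 probe sets at or above the median mean level were fitted with limma 3.58.1 in R 4.3.3 (a mean per group, empirical Bayes with intensity trend), with Benjamini-Hochberg adjustment within each contrast. Errors of log2 changes are standard errors. Correlations used Python 3.11.15 with SciPy 1.17.1. Symbols came from the platform annotation of 2016: 19064 probe sets had 1 symbol, 1043 several and 2108 none. Lists used the brightest probe set of a gene. All 8 members, by every probe set, the 3 genes most like each member, and the 3 genes with the smallest p of each list were named, with any list gene that passed. The sex differences of OGN and PRELP and ASPN's lowest female value were singled out after their values were seen.

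Members, gene lists, and the limits for divergent arrays (median correlation under 0.85) and near-identical pairs (deviation correlation of at least 0.7) were chosen with earlier results of these data known. Over all probe sets no array fell under 0.85 (the 7 divergent arrays lay at 0.854 to 0.880, the others at 0.903 to 0.940), and the near-identical pairs had deviation correlations of 0.64 to 0.77, against at most 0.36 for other pairs. Both measures were then restricted to the brighter probe sets, a change made after seeing these values. There the pairs had 0.79 to 0.88, against at most 0.57. The alternatives with 24 arrays and without divergent samples bear on that choice. Replicate numbers were not used as pairs. The fitting code was run on simulated data with independent noise, shifts larger than the members' changes, and no divergent or near-identical arrays. That run does not show how the fits behave with such arrays or with smaller changes.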

Additional observations from a re-analysis of the deposited data

Results flagged for a closer look

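Among 60 sets of values, each a member probe set in 1 group, 2 held a sample far from the others of its group, where chance alone would give about 1 in 20. BGN 213905_x_at stood at 10.39 in young male 2, against 9.62 to 9.84 in the other young males. OGN stood at 7.94 in young female 3, a divergent sample, against 9.38 to 9.96 in the other young females.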

How the results depend on the processing

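No member probe set passed in any of the 6 contrasts under any alternative run, except FMOD in males with array weights (1 member). The count of all probe sets passing in males, 2 in the report, was 0 with a pseudocount of 64, median-centred arrays, no filter, a filter at the 75th percentile or a fit of the 2 male groups alone, 1 with the actin ratio as a covariate and 25 with array weights; leaving out 1 sample gave 0 to 2. In the average contrast it was 1 without divergent samples. With no filter the sex contrasts gave 5 probe sets in young and 6 in old animals.

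Deviations of same-numbered samples of different groups had a median r of 0.065, from -0.43 to 0.51. For different numbers the median was -0.003, from -0.50 to 0.50. The labels do not say whether a number links samples, and these values cannot decide it because the ranges overlap almost fully. With the replicate number as a block, which leaves old male 4 alone in its block and so without weight, 1 probe set and no member passed in the average, FMOD in males was 1.11, and 3 male or average values turned: BGN 201262_s_at 0.098, OGN 0.29 and its average 0.085.

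ACAN in males lost the threshold with a pseudocount of 64, median-centred arrays, no filter or the male groups alone (adjusted p up to 0.169), and was below the filter at the 75th percentile. The members' small changes turned sign in several settings, and the cause was not tested. Without divergent samples (by limma or exact test) they were 0.20 (BGN 213905_x_at) and 0.17 (OGN) in males. In females they were 0.14, 0.11 and 0.13 (DCN 201893_x_at, 211813_x_at, 211896_s_at), 0.010 (BGN 213905_x_at), 0.11 (OGN) and -0.040 (PRELP 37022_at). In the average they were 0.15 (DCN 211813_x_at), 0.11 (BGN 213905_x_at) and 0.14 (OGN). By exact test LUM in males was 0.23 and OMD 205907_s_at in females -0.046. With divergence as a covariate OGN was 0.096 in males, 0.17 in females and 0.14 in the average, PRELP 37022_at -0.12 in females and DCN 211813_x_at 0.014 in the average. With the actin ratio OGN was 0.27 and PRELP 37022_at -0.19 in females, the FMOD difference between the sexes' age effects -0.0055, and BGN 201261_x_at -0.18 between the sexes in old animals. Array weights gave 0.071 (BGN 213905_x_at) and 0.083 (OGN) in males and 0.019 (DCN 211813_x_at) and 0.0056 (OGN) in the average. Counting 24 arrays gave 0.30 (OGN), 0.082 (PRELP 204223_at) and -0.0025 (PRELP 37022_at) in females and -0.0097 and -0.062 (DCN 201893_x_at, 211896_s_at) and 0.10 (OGN) in the average. Median-centred arrays gave -0.072 (PRELP 37022_at) in females and -0.084 and -0.15 (DCN 201893_x_at, 211896_s_at) in the average, and the deposited scale -0.024 and -0.086 for the latter.

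Leaving out 1 sample at a time turned these ranges across 0: in females ASPN -0.49 to 0.13, DCN 201893_x_at -0.25 to 0.013, FMOD -0.033 to 0.54, OGN -0.48 to 0.21, PRELP 204223_at -0.61 to 0.073 and PRELP 37022_at -0.10 to 0.12; in males BGN 201262_s_at -0.48 to 0.098 and OGN -0.40 to 0.29. In the average they were DCN 201893_x_at -0.017 to 0.13, 211813_x_at -0.15 to 0.065, 211896_s_at -0.12 to 0.086, OGN -0.29 to 0.085 and PRELP 204223_at -0.0059 to 0.34. Between the sexes BGN 201261_x_at ran from -0.074 to 0.16 in young and -0.0013 to 0.53 in old animals.

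The count of correlated pairs, 6 in the report, was 10 with median-centred arrays (median r 0.58), 0 without divergent samples (0.22, with -0.39 for BGN and OGN and -0.14 for FMOD and OGN), 2 with divergence as a covariate (0.18), 3 with group means kept, and 2 to 7 (0.20 to 0.47) leaving out 1 sample. The exact test without divergent samples was added after seeing the data.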
